A study of Mus musculus with 6 samples.

Results

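The 10 genes described here encode mediators that macrophages are known to make when activated: the cytokines Tnf, Il1a, Il1b, Il6, Il12b and Il10, the enzymes Ptgs2, Nos2 and Arg1, and the secreted protein Retnla. They were found by name, as every probe whose gene name in the scanner files was 1 of these 10, on all 6 arrays. Each gene had 1 probe, so they make up 10 of the 55681 probes and 10 of the 34964 genes on the array. In macrophages, microbial products and injury signals act through NF-kB to switch on Tnf, Il1a, Il1b, Il6 and Il12b, the cytokines of the inflammatory state, along with Ptgs2 and Nos2. Il10 limits the same response, and Il4 and Il13, acting through the transcription factor STAT6, raise Arg1 and Retnla, which mark alternative activation. In the mammary gland, macrophages surround the ducts and are known for a part in branching, clearance of dying cells and support of the stem cell compartment.

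The study measured RNA on 6 arrays with 2 colours each. All cells came from mammary glands of virgin females. F4/80+ macrophages (F4/80 is a surface protein of mouse macrophages) were taken from C57/B6:cKO-Dll1 mice, a conditional knockout (KO) of the Notch ligand gene Dll1, and from wild type (WT) C57/B6 littermates, with 2 arrays per genotype. CD24+CD29hi cells, the gate that the study calls mammary stem cells, came from C57/B6:Dll1-mCherry reporter mice and were sorted as mCherry+ (Dll1-high) or mCherry- (Dll1-low), with 1 array each. Mouse ages are not in the sources used here, nor is the Cre line or the cell type that loses Dll1 in the KO. The labels do not say whether the 2 replicates of a genotype came from separate animals or pools, so p-values measure only the spread between these samples. Each value is a log2 ratio of the sample (Cy5 dye) over a universal mouse reference RNA made from 11 cell lines (Cy3 dye), so 1 unit is 2-fold, and a ratio cannot be set against that of another probe as a level.

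Cy5 was well above background, as the scanner software marks it, for 86.0% and 88.1% of spots on the CD24+CD29hi arrays and for 47.4% to 71.9% on the macrophage arrays. The array labelled WT replicate 1 stood apart: over the 13 of 14 macrophage markers measured on all arrays (the spot of Ctss on KO replicate 1 was left out), its median log2 ratio was 1.89, against 3.17 and 4.03 in KO replicates 1 and 2 and 3.99 in WT replicate 2. Their summed Cy5 signal above background was 14973 on that array and 118438 to 131524 on the other macrophage arrays. Adgre1, which encodes F4/80, read 4.15 and 4.56 in the KO and 1.85 and 3.99 in the WT, in the order of replicates 1 and 2. In this text, macrophage values are given in the order KO replicate 1, KO replicate 2, WT replicate 1, WT replicate 2. The replicate number goes with the position on the slide: the arrays of number 1 sat in one row and those of number 2 in the other. The genotype goes with the slide column: both KO arrays sat in column 4 and both WT arrays in column 3. Genotype and column therefore cannot be told apart. Fewer cells of a type and less RNA per cell cannot be told apart in such bulk samples. Dll1 itself read 0.80, 2.25, 0.78 and 3.24 on the macrophage arrays, so the KO and WT arrays overlapped. It read 3.94 in Dll1-high and 3.26 in Dll1-low cells.

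Of the 10 genes, 7 had an entry among the RefSeq promoters (GRCm38.p6), while Nos2, Il10 and Arg1 had none. The 250 bases before the start of 5 of them are shown: Tnf and Ptgs2, with the highest KO minus WT differences of the 10, Il1b and Retnla, which differed most between macrophages and CD24+CD29hi cells beside Ptgs2, and Il6, the only one with a match to the NF-kB site. Capitals mark matches to 1 of 6 motifs, searched on both strands: the TATA box (TATAAA), the AP-1 site (TGANTCA), the STAT site (TTCNNNGAA), the STAT6 site (TTCNNNNGAA), the C/EBP site (TTGCNNAA) and the NF-kB site by its name.
Tnf: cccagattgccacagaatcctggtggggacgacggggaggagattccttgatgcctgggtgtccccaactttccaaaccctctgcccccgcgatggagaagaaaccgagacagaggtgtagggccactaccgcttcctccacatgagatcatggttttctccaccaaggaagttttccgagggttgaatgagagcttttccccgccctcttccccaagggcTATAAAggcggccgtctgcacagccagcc
Ptgs2: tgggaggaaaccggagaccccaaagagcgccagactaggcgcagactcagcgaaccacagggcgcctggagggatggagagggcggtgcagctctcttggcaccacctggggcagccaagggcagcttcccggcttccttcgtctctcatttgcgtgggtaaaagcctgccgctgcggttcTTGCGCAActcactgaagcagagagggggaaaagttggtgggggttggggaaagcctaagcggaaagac
Il1b: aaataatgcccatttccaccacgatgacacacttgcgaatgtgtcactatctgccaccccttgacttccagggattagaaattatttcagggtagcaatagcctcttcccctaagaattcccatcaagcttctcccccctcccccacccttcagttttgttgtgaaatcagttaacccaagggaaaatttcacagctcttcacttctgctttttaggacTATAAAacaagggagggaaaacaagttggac
Il6: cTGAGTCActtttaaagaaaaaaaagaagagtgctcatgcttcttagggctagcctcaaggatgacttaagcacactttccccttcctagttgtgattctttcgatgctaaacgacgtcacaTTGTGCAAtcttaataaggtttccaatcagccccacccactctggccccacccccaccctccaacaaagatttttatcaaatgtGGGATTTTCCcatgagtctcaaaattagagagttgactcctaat
Retnla: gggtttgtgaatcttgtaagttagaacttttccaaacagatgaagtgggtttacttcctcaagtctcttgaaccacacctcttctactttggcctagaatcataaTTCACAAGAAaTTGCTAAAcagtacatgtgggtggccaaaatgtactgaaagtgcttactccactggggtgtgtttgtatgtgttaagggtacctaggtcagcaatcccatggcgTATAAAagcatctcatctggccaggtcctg
The windows are chr17:35202008-35202257 on the minus strand for Tnf, chr1:150099781-150100030 on the plus strand for Ptgs2, chr2:129371140-129371389 on the minus strand for Il1b, chr5:30012864-30013113 on the plus strand for Il6 and chr16:48842359-48842608 on the plus strand for Retnla.

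Tnf, Il1b and Retnla each held TATAAA, with its first base 29, 31 and 30 bases before the start, as did Il1a at 32 bases. Of 32851 RefSeq promoters of this length, 12.4% held it. Ptgs2 held the C/EBP motif TTGCGCAA from -69 to -62, a palindrome that matches on both strands. Il6 held the C/EBP motif from -128 to -121 on the minus strand, AP-1 at -249 and the NF-kB motif GGGATTTTCC from -44 to -35. Retnla held the STAT6 motif TTCACAAGAA from -145 to -136, and the C/EBP motif begins 1 base after it ends. The C/EBP motif occurred in 9.56% of all promoters, NF-kB in 7.25%, AP-1 in 6.75%, STAT6 in 5.85% and STAT in 7.02%. Il1a also held AP-1 at -12, and Il12b held none of the 6. A match is a description of letters, and no match says only that these letters are not in this window.

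The first question was which of these mediators differed between KO and WT macrophages. All 10 entered the test, which asked for a Cy5 signal clear of background on 2 or more of the 4 macrophage arrays: 8 had it on all 4, Il1a on 3 and Arg1 on 2. None of the 10 passed the threshold in limma's test with Benjamini-Hochberg adjustment over all 24766 genes tested (0.05, adjusted p = 0.999 for each), and 0% of all genes tested passed it. At an unadjusted p under 0.05 none of the 10 and 0.125% of all genes were called. With 2 arrays per genotype, an exact two-sided permutation test could not give a p below 0.333. On average 7 of the 10 read higher in the KO, against 40.1% of all genes. That count was 3 without WT replicate 1, 4 without KO replicate 2, 8 without KO replicate 1, 9 without WT replicate 2 and 2 after centring on the macrophage markers. The median KO minus WT difference was 0.18 over the 10 and -0.10 over all genes tested. Tnf and Ptgs2 had the highest differences, and both were at least 2-fold on average, as were 1.66% of all genes in that direction.

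**Figure D1:**
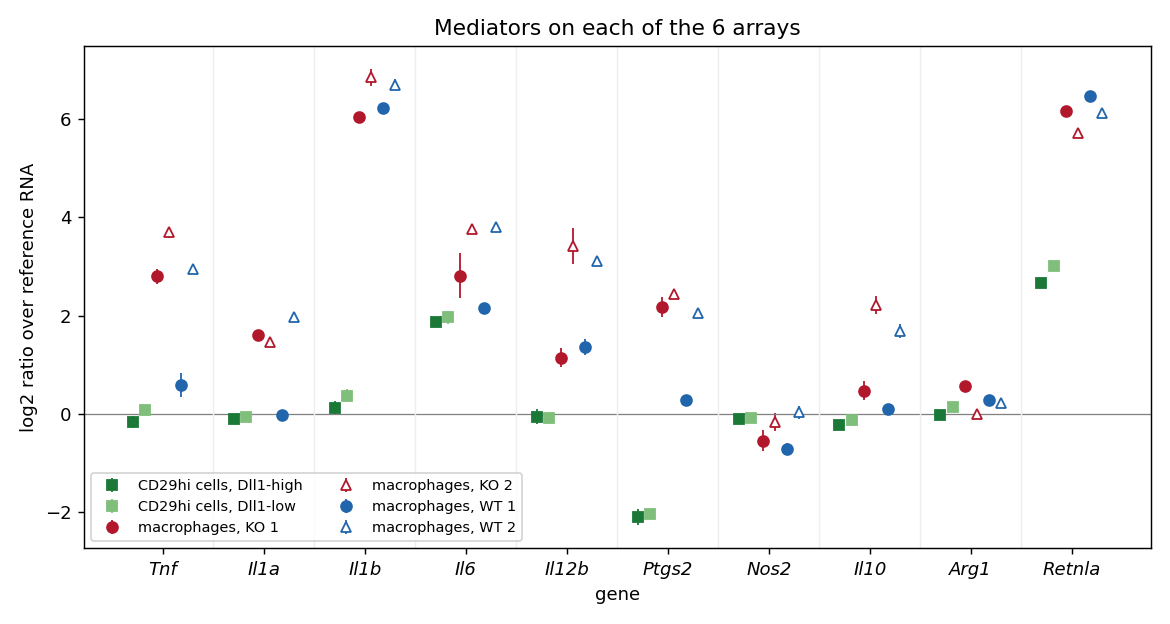
Log2 ratio over the reference RNA (vertical axis) of the 10 mediators (horizontal axis) on each of the 6 arrays, 1 point per array, coloured by group, with circles for replicate 1 and open triangles for replicate 2 of the macrophages, squares for the CD24+CD29hi cells, and bars for the SD over spots where a probe had several. Tnf, Il1a and Ptgs2 show WT replicate 1 well below the other 3 macrophage arrays, and Il1b and Retnla show all macrophage arrays far above the CD24+CD29hi arrays.

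Tnf, the secreted cytokine that drives NF-kB signalling in neighbouring cells, was read by a probe spotted 10 times, at chr17:35336795-35336854 (mm9). Its log2 ratios were 2.80 and 3.70 in the KO and 0.60 and 2.95 in the WT macrophages, with SDs over spots of 0.082 to 0.241. Both KO arrays lay far above WT replicate 1, but KO replicate 1 lay below WT replicate 2, so the genotypes overlapped. KO minus WT was 1.47 (SE 0.93, 95% interval -1.06 to 4.00, n = 2 against 2, limma adjusted p = 0.999), or 2.78-fold. Within replicate number 1 the difference was 2.20, and within replicate number 2 it was 0.74, or 4.60-fold and 1.68-fold. Tnf was thus higher in the KO at both replicate numbers, and 0.973% and 0.642% of genes had a difference as high at replicate number 1 and 2. Leaving out WT replicate 1 gave 0.29, and leaving out WT replicate 2 gave 2.65. The Cy5 signal for Tnf was 1538, 1255, 214 and 832, and the reference signal was 132 to 157 on these arrays.

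Ptgs2 encodes the inducible cyclooxygenase, which starts prostaglandin synthesis from arachidonic acid, and its probe had 10 spots at chr1:151954744-151954803. It read 2.17 and 2.43 in the KO and 0.29 and 2.06 in the WT. It was the only member of the 10 whose KO arrays both lay above both WT arrays, an order seen in 6.66% of all genes tested. The gap between the lower KO array and the higher WT array was smaller than the SD over spots on the former, 0.202. That SD describes single spots of 1 array, and is neither the error of their mean nor the spread between samples. KO minus WT was 1.13 (SE 0.69, 95% interval -0.76 to 3.02, n = 2 against 2, limma adjusted p = 0.999). Within replicate number 1 it was 1.89 and within replicate number 2 it was 0.37, differences that 1.85% and 5.14% of genes reached. Leaving out WT replicate 1 gave 0.24, and leaving out WT replicate 2 gave 2.02.

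The interleukin 1 cytokines, which signal through the receptor Il1r1, did not share this order. Il1b, spotted 10 times at chr2:129190347-129190406, read 6.03, 6.84, 6.21 and 6.70. KO minus WT was -0.02 (SE 0.45), with the interval from -1.24 to 1.21, so a difference of up to 2-fold either way was within the error. Within replicate numbers 1 and 2 it was -0.18 and 0.15. The Il1b ratio was steady while its Cy5 signal was not: the signal was 15575, 15417, 2960 and 21497, and the reference signal moved from 144 on WT replicate 1 to 294 on WT replicate 2. Il1a, a single spot at chr2:129125994-129126053, read 1.61, 1.46, -0.01 and 1.97. It was not well above background on WT replicate 1, and the reference signal was not well above background on any macrophage array, so its ratios have no firm denominator. KO minus WT for Il1a was 0.56 (SE 0.75), with 1.63 at replicate number 1 and -0.51 at replicate number 2.

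Il6 and Il12b are secreted cytokines that act on other immune cells, and Il12b is the subunit shared by interleukins 12 and 23. Il6, with 2 spots at chr5:30346367-30346426, read 2.81, 3.76, 2.15 and 3.81. KO minus WT for Il6 was 0.31 (SE 0.73), with 0.67 and -0.05 at replicate numbers 1 and 2. Il12b, with 10 spots at chr11:44227121-44227180, read 1.15, 3.41, 1.36 and 3.11, with no reference signal well above background on these arrays. For both genes, each array of replicate number 2 lay above each of replicate number 1, whatever the genotype. KO minus WT for Il12b was 0.04 (SE 1.04), with -0.22 and 0.30 at the replicate numbers.

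Nos2, which makes nitric oxide from arginine in inflammatory macrophages, had 2 spots at chr11:78773567-78773626 and read -0.54, -0.17, -0.71 and 0.03. Before background correction and normalisation, the Cy5 signal of Nos2, 161 to 377, was below the reference signal, 361 to 401, on each macrophage array. KO minus WT for Nos2 was -0.02 (SE 0.42), with 0.17 and -0.20 at replicate numbers 1 and 2. Arg1, which competes for the same arginine in alternative activation, had 1 spot at chr10:24636194-24636253 and read 0.57, 0.00, 0.28 and 0.23. It was not well above background on KO replicate 2 and WT replicate 2, so 1 array per genotype measured it, and KO minus WT was 0.03 (SE 0.36).

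Il10, the cytokine that restrains inflammatory gene induction, had 10 spots at chr1:132920943-132921002 and read 0.47, 2.22, 0.10 and 1.68. Its KO arrays read higher at both replicate numbers, by 0.37 and 0.54, but KO replicate 1 lay below WT replicate 2. KO minus WT for Il10 was 0.46 (SE 0.87), and differences as high were found in 24% of genes at replicate number 1 and 1.8% at number 2. Retnla, a secreted protein of alternatively activated macrophages, had 1 spot at chr16:48844447-48844506 and read 6.17, 5.71, 6.46 and 6.13. It was the only one of the 10 that was lower in the KO at both replicate numbers, with differences of -0.30 and -0.42. KO minus WT for Retnla was -0.36 (SE 0.36), and 30.2% of all genes were lower at both. The reference signal of its spot, 119, 480, 387 and 196, was far from constant, and on Cy5 alone the difference was 0.06, with -0.93 and 1.06 at the replicate numbers.

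Setting the replicate numbers side by side, Tnf, Ptgs2 and Il10 were higher in the KO at both (3 of 10, against 18.7% of all genes), Retnla was lower at both, and the order of the genotypes differed for the other 6, as it did for 51.1% of all genes. At replicate number 1, Tnf, Il1a and Ptgs2 were at least 2-fold higher in the KO, as were 8.7% of all genes. At replicate number 2 none of the 10 was, as against 0.254% of all genes. None was at least 2-fold lower at either number, where 18.1% and 0.63% of all genes were.

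**Figure D2:**
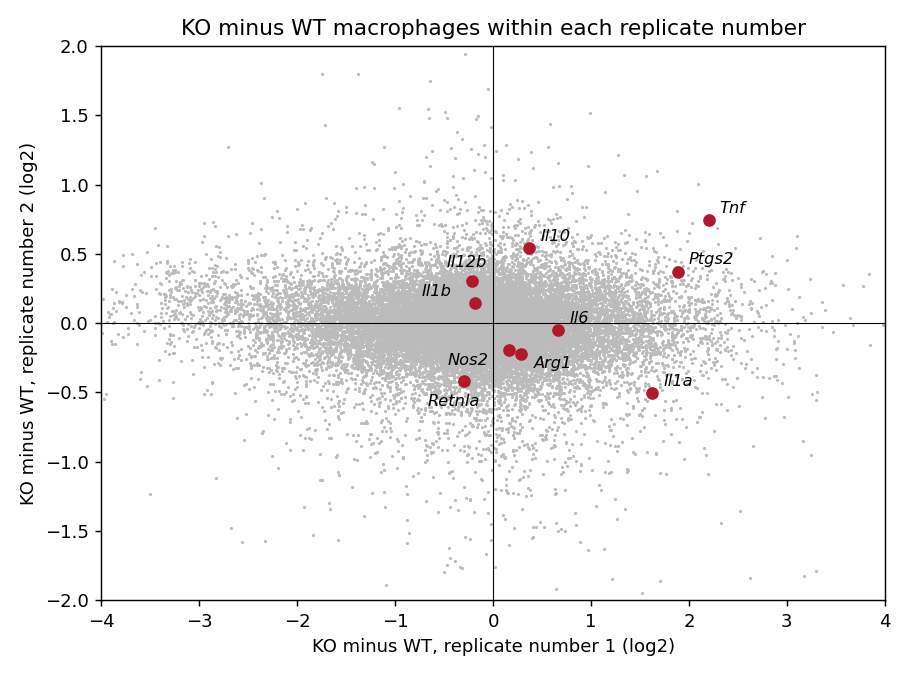
KO minus WT (log2) at replicate number 1 (horizontal axis) against replicate number 2 (vertical axis) for the 24766 genes tested (grey) and the 10 mediators (red). 76 genes lie outside the axes. The spread is wider along the horizontal axis, and Tnf, at 2.20 and 0.74, lies at the upper right edge of the cloud.

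The replicate number was associated with larger differences than the genotype for 9 of the 10, all but Ptgs2, and for 68.3% of all genes. In a limma fit with both terms, replicate number 2 minus 1 was 2.01 for Il12b, 1.66 for Il10, 1.63 for Tnf and 1.31 for Il6. It was -0.31 for Arg1, which was not well above background on the arrays of replicate number 2, and -0.39 for Retnla. On Cy5 alone, the log2 signal of Retnla was 12.77, 13.94, 13.70 and 12.88, so the replicate numbers overlapped. No gene passed the threshold of 0.05 for the replicate number in that fit (0 of 24766, with 3990 at an unadjusted p under 0.05). The lowest limma adjusted p among the 10 was 0.172, for Il12b. Both arrays of replicate number 2 lay above both of number 1 for Tnf, Il1b, Il6, Il12b, Nos2 and Il10 (6 of 10, against 27.9% of all genes) and below for Arg1 and Retnla (2 of 10, against 31.6%). WT replicate 1 was the lowest of the 4 arrays for Tnf, Il1a, Il6, Ptgs2, Nos2 and Il10 (6 of 10, against 29.2%). With the replicate number in the fit, KO minus WT for Tnf had an SE of 0.48 (unadjusted p = 0.033, limma adjusted p = 0.958), and Ptgs2 had an unadjusted p of 0.077 (limma adjusted p = 0.958).

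The macrophage markers stood in the same order over the arrays as Tnf and Il10. The median log2 ratio of the 10 mediators was 1.89, 2.92, 0.44 and 2.51, and that of the 13 macrophage markers was 3.17, 4.03, 1.89 and 3.99. Of those markers, 12 to 13 were well above background on each array, and 11 of 13 read higher in the KO. After subtracting the macrophage marker median of each array, a scale chosen after seeing the data, Tnf read -0.37, -0.34, -1.29 and -1.03. Both KO arrays lay above both WT arrays there, with KO minus WT of 0.81 (limma adjusted p = 0.956). The shares of all genes in this or the reverse order were not counted on that scale. Ptgs2 read -0.99, -1.60, -1.60 and -1.93 on that scale, so its genotypes no longer lay apart. Il6, on the same scale, read -0.35, -0.27, 0.26 and -0.17, with the KO arrays below. Its KO minus WT was -0.35 there, against a median of -0.76 over all genes tested. Reading lower in the KO was therefore usual on this scale.

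Markers of other cells also moved with the arrays. The 10 neutrophil markers had a median of 3.35, 1.94, 1.43 and 3.75, with 9 to 10 well above background on each array and summed Cy5 signals of 42860 to 127864 in the KO and 45609 to 72128 in the WT. Of these, 8 of 10 read higher in the KO, with a median of 1.59 at replicate number 1 and -0.60 at replicate number 2. S100a8, a neutrophil calcium-binding protein, read 3.32, 2.02, 0.14 and 3.84. The neutrophil markers did not all share this order. Csf3r (1.45, 0.45, 2.94 and 0.15) and Elane (1.54, 0.34, 2.01 and 0.49) were highest on WT replicate 1, and Ly6g ranged only from -0.11 to 0.21. The 5 eosinophil markers had a median of 1.44, 1.39, 0.07 and 2.23, with 4 to 5 well above background and summed Cy5 signals of 1449 to 3513 in the KO and 488 to 1899 in the WT. Siglecf, which mouse eosinophils and some macrophages carry, read 4.52, 4.23, 0.07 and 4.27. Prg2 and Ccr3 were also lowest on WT replicate 1. Il5ra went the other way, with 2.37 on WT replicate 1 and 0.87 to 1.44 on the other macrophage arrays. Epx ranged only from 0.16 to 0.54. Of the 4 eosinophil markers tested, 3 read higher in the KO. The 8 fibroblast markers, all well above background on each array, had a median of -0.29, -0.72, 1.31 and -1.15, highest where the macrophage markers were lowest. Their summed Cy5 signal was 34084, 16948, 27109 and 17209, so by signal KO replicate 1 was the highest. The medians of further lists were higher in the KO at replicate number 1: KO minus WT had a median of 1.15 over the 5 mast cell markers tested (2.30 and -0.03 at replicate numbers 1 and 2), 1.04 over 5 NK cell markers (1.92 and 0.19), 0.71 over 6 B cell markers (1.39 and -0.06) and 0.69 over 6 monocyte markers (1.17 and 0.12). Of these, 4 of 5, 5 of 5, 5 of 6 and 5 of 6 read higher in the KO. The summed Cy5 signal in the KO and WT was 3443 to 10068 and 4922 to 7336 for mast cells, 2948 to 8818 and 927 to 3159 for NK cells, 4005 to 13955 and 3934 to 6693 for B cells, and 109702 to 160525 and 104625 to 149898 for monocytes. The dendritic cell, luminal and basal epithelial medians were also highest on WT replicate 1. Dendritic cell markers had 1.76, 2.48, 2.66 and 2.64, luminal markers -0.16, 0.08, 0.74 and 0.00, and basal markers 0.55, 0.64, 0.76 and 0.31. Their summed Cy5 signals on that array, 35524, 11211 and 6798, were not the highest of the macrophage arrays. T cell and adipocyte medians were lowest there, at 0.73 and 0.24. The part of all these cells in the differences of Tnf, Il1a and Ptgs2 was not tested.

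**Figure D3:**
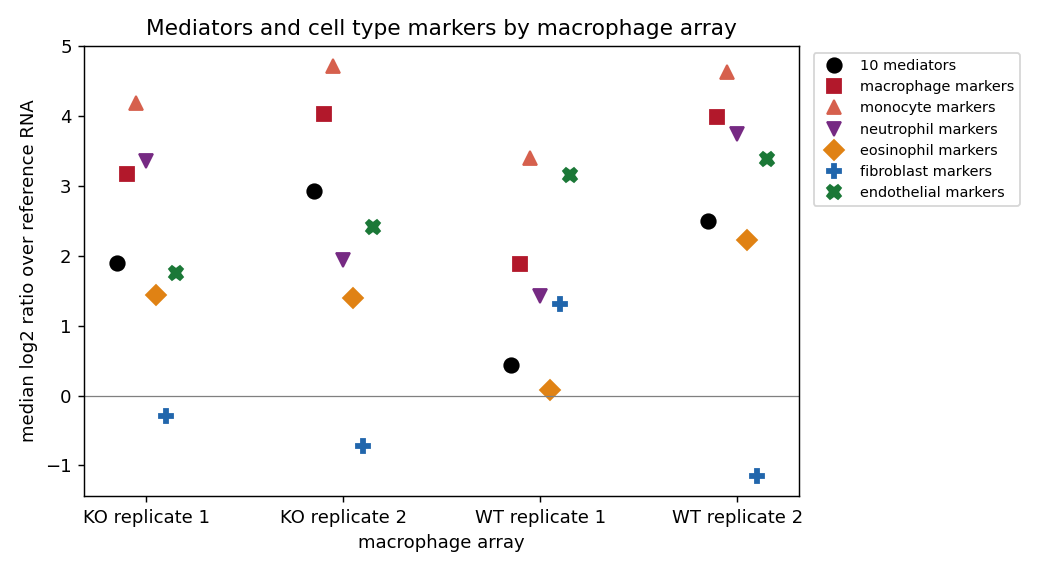
Median log2 ratio over the reference RNA (vertical axis) of the 10 mediators (black circles) and of marker lists of macrophages, monocytes, neutrophils, eosinophils, fibroblasts and endothelial cells (other symbols) on each of the 4 macrophage arrays (horizontal axis). WT replicate 1 has the lowest macrophage median of the macrophage arrays, 1.89, and the highest fibroblast median, 1.31.

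Other genes of the same pathways were read from 8 lists, and in none did a gene pass the threshold in limma's test. The genes named below had both KO arrays above both WT arrays, as 6.66% of all genes did, or both below, as 13.5% did. Of 16 NF-kB signalling genes, 11 read higher and 5 lower in the KO, with a median of 0.28. Chuk, a kinase that releases NF-kB, had both KO arrays above both WT arrays, with KO minus WT of 0.69 (SE 0.39), and Traf6, an adaptor of the interleukin 1 receptor, had both below, with -0.16. Of 15 feedback inhibitors and RNA decay genes, 8 read higher and 7 lower, with a median of 0.25. Tnfaip3, the ubiquitin-editing enzyme that ends NF-kB signalling downstream of Tnf, read 6.28, 5.82, 3.84 and 5.51, with both KO arrays above the WT arrays and KO minus WT of 1.38 (SE 0.67). Nfkbiz, an NF-kB cofactor, read 1.44, 1.07, 0.22 and 0.98, with a difference of 0.65 (SE 0.42). As with Tnf and Ptgs2, most of these differences lay at replicate number 1: for Tnfaip3 it was 2.44 there and 0.31 at number 2. Socs1 and Socs3, inhibitors of cytokine receptor signalling, had both KO arrays below, with -0.27 and -0.20. Of the 15, 2 were in that order, against 13.5% of all genes. Both KO arrays lay above for 4 of the 15, Tnfaip3 and Nfkbiz among them, against 6.66% of all genes.

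Among the receptors and antagonists of these cytokines, 7 of 12 read higher and 5 lower, with a median of 0.15. Il1r1, the signalling receptor for Il1a and Il1b, and its partner Il1rap had both KO arrays below both WT arrays, with KO minus WT of -0.73 (SE 0.40) and -0.39. Il12rb1, a receptor chain for interleukin 12, and Tnfrsf1a, a receptor for Tnf, had both above, with 0.58 (SE 0.40) and 0.28. Of 6 cytokine processing genes, 4 read higher, with a median of 0.30. Of 9 other cytokines of the same families that were tested among 12, 6 read higher, with a median of 0.21 that was 0.76 at replicate number 1 and -0.25 at number 2. Il19, a relative of Il10, had both KO arrays below, with -0.22.

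Of 12 prostaglandin genes, 7 read higher and 5 lower in the KO, with a median of 0.11. Pla2g4a, the phospholipase that frees the arachidonic acid Ptgs2 acts on, had both KO arrays above, with KO minus WT of 0.75 (SE 0.50). The arginine and nitric oxide genes were split evenly, 4 and 4 of 8 tested, with a median of 0.02. Nos3, the endothelial nitric oxide synthase, read 0.81, 1.54, 2.68 and 2.37, with KO minus WT of -1.35 (SE 0.41). It was the only gene of the 8 lists at an unadjusted p under 0.05 (0.028, limma adjusted p = 0.999). The 8 endothelial markers, all well above background on every array, had a median of 1.76, 2.41, 3.16 and 3.39, also lower on both KO arrays, and their summed Cy5 signal was 15778 to 16879 in the KO and 10215 to 55772 in the WT. The part of endothelial cells in the Nos3 difference was not tested. Nos1, the neuronal synthase, had both KO arrays above, with 0.46.

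Of 17 alternative activation genes tested among 19, 9 read higher and 8 lower, with a median of 0.10. Ccl17, a chemokine induced by Il4, read 2.41, 2.98, 3.36 and 3.52, with KO minus WT of -0.74 (SE 0.37), and was lower at both replicate numbers. Egr2, a transcription factor induced by Il4, had both KO arrays above, with 0.34. Clec10a, a lectin of alternatively activated macrophages, read 6.61, 0.18, 7.18 and 7.09. Its single spot on KO replicate 2 was at background in both channels (64 over 65 in Cy5 and 18.5 over 19 in Cy3), while Cy5 was 4580 to 33956 on the other macrophage arrays, so its -3.74 (SE 2.25) rests on that spot.

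**Figure D4:**
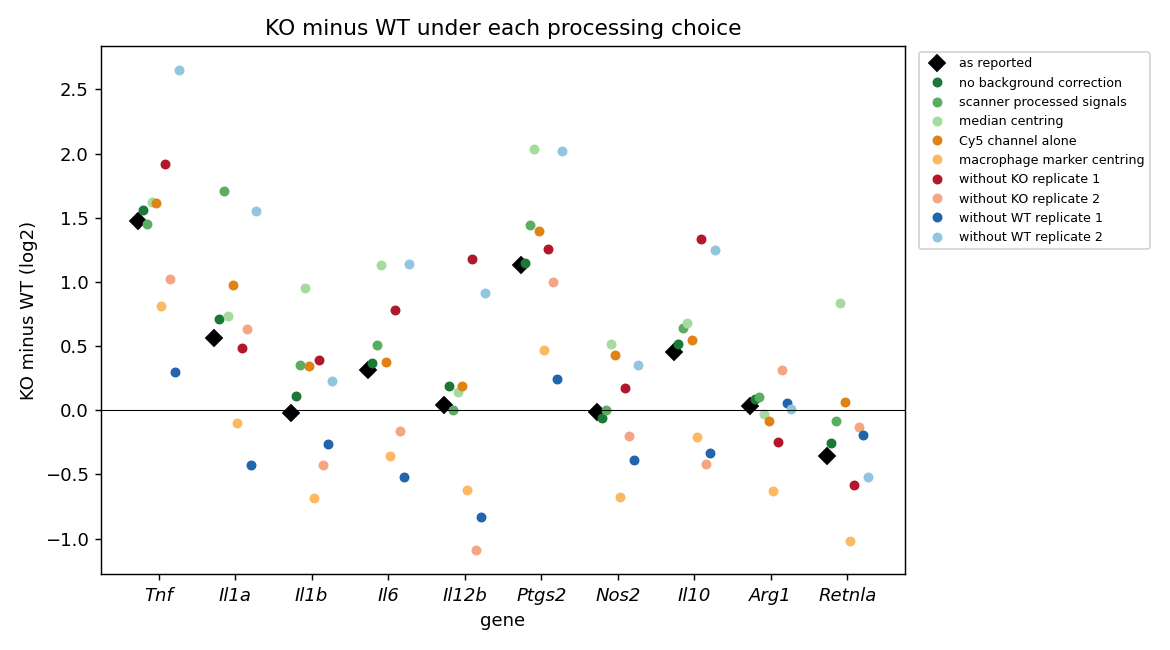
KO minus WT (log2, vertical axis) of each of the 10 mediators (horizontal axis) as reported (black diamond) and under other processing choices or without 1 array (coloured points). Tnf and Ptgs2 stay above 0 throughout, with their lowest points, 0.29 and 0.24, without WT replicate 1, while the other 8 have points on both sides of 0.

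The second question was how the mediators stood in Dll1-high against Dll1-low CD24+CD29hi cells. With 1 array per state there is no test. For the basal epithelial markers of this gate the median was 4.20 in Dll1-high and 3.87 in Dll1-low cells, and for the macrophage markers it was -0.51 and -0.34. All 13 macrophage markers were well above background on both arrays, with summed Cy5 signals of 13504 and 14275. Their ratios ranged from -2.56 to 1.74 and from -2.46 to 1.80. The part of macrophages in the mediator values of this gate was not tested. None of the 10 was 2-fold apart, as against 0.0933% of 32150 genes that were 2-fold higher and 0.103% that were 2-fold lower in Dll1-high cells. Retnla read 2.664 in Dll1-high and 3.002 in Dll1-low cells, a difference of -0.34. Il1b read 0.13 and 0.37, a difference of -0.24 with a spot SD of 0.20. Tnf read -0.16 and 0.08, also a difference of -0.24, with a spot SD of 0.14. A spot SD describes single spots, and is neither the error of their mean nor the spread between samples. Of the 10, 9 read lower in Dll1-high cells, all but Il12b at 0.02, against 56% of all genes. That count was 6 on Cy5 alone, where Il1a, Il10 and Ptgs2 also read higher in Dll1-high cells, and 8 with scanner processed signals or median centring, and Retnla ranged from -0.62 to -0.16 over the processing alternatives. The differences of the other 6 lay between -0.16 for Arg1 and -0.03 for Il1a and Nos2, and over probes with 10 spots the median spot SD of a difference was 0.13. The median over the 10 was -0.10, and over all genes it was -0.03. Il1a was not well above background in Dll1-low cells. None of the genes of the 8 related lists was 2-fold apart.

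The macrophages and the CD24+CD29hi cells were each on a slide of their own, so their differences cannot be told apart from those between slides, and the values are a description. For 8 of the 10, all but Nos2 and Arg1, all 4 macrophage arrays lay above both CD24+CD29hi arrays, as they did for 21.4% of 24649 genes. The distance from the lowest macrophage array to the higher CD24+CD29hi array was 5.66 for Il1b, 2.71 for Retnla, 2.32 for Ptgs2 and 1.21 for Il12b. It was 0.52 for Tnf, 0.23 for Il10, 0.18 for Il6 and 0.06 for Il1a. The count was 7 of 10 without background correction, with the scanner's or the authors' processed values, with median centring and on Cy5 alone. Il6 was well above background in CD24+CD29hi cells, at 1.86 and 1.96, with Cy5 signals of 1979 and 2008. Ptgs2 read -2.10 and -2.04 there, below the reference. Nos2 read -0.11 and -0.07, with Cy5 signals of 1741 and 1817.

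The genes whose pattern over the 6 arrays was most like that of Tnf, by the root mean square difference of their log2 ratios after subtracting the mean of each gene, included Icos (0.150) and Slc7a8 (0.197), among 17605 genes well above background on all 6 arrays. Icos read 3.01, 3.67, 1.02 and 3.32 on the macrophage arrays, with WT replicate 1 lowest, as for Tnf. Such likeness follows from the way Icos was picked, and 29.2% of all genes tested had that array lowest. For Il1b the nearest were Rgs1 (0.250), Gpr132 (0.285) and Myo1g (0.324). Rgs1 read 6.43, 6.72, 5.80 and 6.63 on the macrophage arrays and -0.02 and 0.13 in Dll1-high and Dll1-low cells.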

How the data were processed

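RNA was measured on 6 two-colour Agilent arrays. Spot and background signals are unprocessed intensity values, per the file headers, made by Agilent Feature Extraction in different versions for the CD24+CD29hi and the macrophage slide (the submitters' processing notes give 11.0 for both). The scanner's log ratio is a log10 ratio of sample to reference, per the file headers. The deposited table of values holds log2 ratios, which followed the scanner's with slopes of 1.00 to 1.01.

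Median spot signals were corrected with normexp (offset 50) and normalised by loess within each array (limma 3.58.1, version 1.17.8 of data.table, R 4.3.3), with controls and the 170 to 500 spots per array that the scanner software marked as uneven or outliers left out. Spots were averaged per probe, and a gene was read by its brightest probe. Dyes were never swapped, which leaves any dye bias in the ratios. No macrophage or CD24+CD29hi spot of the 10 genes was saturated in Cy5. Median Cy5 was 330 and 352.5 over a background of 75 and 76 on the CD24+CD29hi arrays while the macrophage arrays had 98 to 155.5, and the number of arrays limits the precision.

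Macrophage genes entered the test where at least 2 of the 4 arrays had Cy5 well above background. They were tested with limma's moderated test and Benjamini-Hochberg adjustment, without a block, and a probe counted as well above where a share of at least 0.5 of its spots did. The fit was tested on simulated data with small independent noise and no replicate effect, unlike these arrays. That run checked the code and not the power of the fit here. The replicate numbers came from the labels, and with 2 pairs (correlation of deviations 0.595) they were not taken to pair the samples, though they go with the slide row. The macrophage genotype goes with the slide column. Probe coordinates are on mm9, per the file headers. Promoters are those of RefSeq. The 10 genes and all lists were chosen with earlier results of these data known. All 10 were named, and from each list the genes past the threshold or, failing that, up to 2 in each direction with the largest differences among genes whose KO arrays lay on 1 side of both WT arrays. For Tnf and Il1b the 3 genes of most similar pattern were also taken, 1 of which is not reported here. Alternatives were other background corrections, scalings, filters, probes, the replicate block and each array left out.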

Additional observations from a re-analysis of the deposited data

How the results depend on the processing

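None of the 10 genes passed the threshold under any alternative, nor did any other gene (0 in limma's test throughout). At an unadjusted p under 0.05, 31 genes were called as reported, 142 with the replicate block, 22 to 121 under the other processing alternatives, and 9, 316, 75 and 4522 without KO replicate 1, KO replicate 2, WT replicate 1 and WT replicate 2. Tnf and Ptgs2 kept their direction in all settings. With the replicate number as a block the smallest adjusted p was 0.958 and the median over the 10 stayed 0.18. That median was 0.28 without background correction, 0.43 with the scanner's processed signals or the authors' table, 0.78 with median centring (all genes 0.46), 0.40 on Cy5 alone and -0.49 after centring on the macrophage markers (all genes -0.76), an alternative chosen after seeing the data, and ranged from -0.30 to 1.03 with 1 array left out.

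Directions turned, the cause not tested, for Il1b without background correction (0.11). With scanner processed signals they turned for Il1b (0.36) and Il12b (-0.000795), and with the authors' table for Il1b (0.36) and Il12b (-0.000796). With median centring they turned for Il1b (0.95), Nos2 (0.52), Arg1 (-0.0286) and Retnla (0.83), and on Cy5 alone for Il1b (0.34), Nos2 (0.43), Arg1 (-0.0868) and Retnla (0.0634). With macrophage marker centring they turned for Il1a (-0.103), Il6 (-0.35), Il12b (-0.62), Il10 (-0.21) and Arg1 (-0.63). With 1 array left out, the values ranged from -0.43 to 1.55 for Il1a, -0.42 to 0.39 for Il1b, -0.52 to 1.14 for Il6, -1.09 to 1.18 for Il12b, -0.38 to 0.35 for Nos2, -0.42 to 1.33 for Il10 and -0.25 to 0.31 for Arg1. Signal over background limits Il1a, Il12b and Arg1 most, since their reference signal was not well above background on the macrophage arrays.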
